A study of Homo sapiens with 4 samples.

Results

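The G2/M and mitosis genes described here are 32 genes chosen by symbol for their roles as mitotic kinases, cyclins, spindle components and cytokinesis factors. The rule names roles and uses no measured value, but the genes were proposed with earlier results of these data known. All 32 were among the 15037 genes of the count table, and all 32 passed the filter on low counts that left 13497 genes to test. Polyadenylated RNA was taken from A549 cells, a long-established human lung carcinoma line of epithelial origin, grown in DMEM. In the PSME4 knockdown group (PSME4 KD, 2 libraries) the cells were depleted of PSME4, a proteasome activator, and in the control group (control KD, 2 libraries) the knockdown was labelled RFP, a fluorescent protein. The labels do not give the knockdown reagent, the time after knockdown or whether the libraries are from different cultures. P-values therefore reflect how far these libraries vary, which may be a technical spread only.

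Cells enter mitosis when CDK1, bound to a B-type cyclin and freed of inhibitory phosphates by CDC25 phosphatases, phosphorylates proteins throughout the cell. Polo-like and Aurora kinases then build the spindle, the spindle checkpoint holds back the anaphase-promoting complex until every chromosome is attached, and kinesins, anillin and a RhoA exchange factor drive cell division. Transcripts of these genes accumulate in G2 and mitosis through promoters that carry CCAAT boxes, bound by NF-Y, and a cell cycle homology region (CHR), bound by the MuvB complex, which recruits B-MYB and FOXM1. Cultures with more dividing cells usually hold more of these transcripts. In bulk RNA a different number of cells in G2 or mitosis and a different amount of RNA per such cell cannot be told apart.

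Promoters of some called members, picked by p-value and not by size of change, are shown because these elements are what many of these genes share. They are the RefSeq windows (GRCh38.p14) from 250 bases before to 50 after the start of transcription, for the members with the smallest p-values in each direction that had such a window, 2 that rose (PLK1 and MKI67) and 2 that fell (HMMR and CDK1). Capitals mark CHR letters (TTTGAA or TTCGAA) and CCAAT boxes (CCAAT, or ATTGG on the other strand). The windows lie at chr16:23678639-23678938 (plus strand, PLK1), chr10:128126374-128126673 (minus strand, MKI67), chr5:163460382-163460681 (plus strand, HMMR) and chr10:60778081-60778380 (plus strand, CDK1).
PLK1: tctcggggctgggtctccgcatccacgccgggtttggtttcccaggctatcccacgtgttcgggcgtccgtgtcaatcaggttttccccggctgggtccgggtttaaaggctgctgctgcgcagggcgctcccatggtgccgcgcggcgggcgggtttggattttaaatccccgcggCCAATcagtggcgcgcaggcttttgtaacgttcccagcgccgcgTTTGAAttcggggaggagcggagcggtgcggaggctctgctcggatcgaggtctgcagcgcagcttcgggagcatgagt
MKI67: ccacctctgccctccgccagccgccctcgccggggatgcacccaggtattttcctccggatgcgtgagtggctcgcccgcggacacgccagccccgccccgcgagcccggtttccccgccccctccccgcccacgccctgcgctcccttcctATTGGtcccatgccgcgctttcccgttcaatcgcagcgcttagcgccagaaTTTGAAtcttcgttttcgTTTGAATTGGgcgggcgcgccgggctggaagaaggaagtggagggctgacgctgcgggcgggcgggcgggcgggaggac
HMMR: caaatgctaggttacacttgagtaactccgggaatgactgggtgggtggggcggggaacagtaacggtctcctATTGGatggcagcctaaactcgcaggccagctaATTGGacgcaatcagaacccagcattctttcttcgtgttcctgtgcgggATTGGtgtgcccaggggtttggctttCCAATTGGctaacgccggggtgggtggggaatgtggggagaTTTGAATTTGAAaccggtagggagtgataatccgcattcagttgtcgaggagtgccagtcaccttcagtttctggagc
CDK1: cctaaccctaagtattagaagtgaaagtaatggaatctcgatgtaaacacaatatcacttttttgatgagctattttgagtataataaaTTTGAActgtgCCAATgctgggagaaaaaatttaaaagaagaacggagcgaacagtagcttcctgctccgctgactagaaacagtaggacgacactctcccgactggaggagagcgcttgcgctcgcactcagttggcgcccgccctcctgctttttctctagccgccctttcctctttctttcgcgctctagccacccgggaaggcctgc
The PLK1 window held 1 CHR and 1 CCAAT box, and the CDK1 window also held 1 of each, but at other positions. In CDK1 the CHR match began at −161 bases from the start, upstream of the CCAAT box at −150. The CHR matches of PLK1, MKI67 and HMMR began at −47 to −22. The MKI67 window held 2 CHR and 2 CCAAT matches, of which 1 pair overlaps, and the HMMR window held 2 CHR and 5 CCAAT matches, of which 1 pair overlaps on opposite strands. Of the 32 genes, 26 had a window, and 18 of these (69.2%) held a CHR, against 16.6% of the windows of all 27305 genes in the RefSeq table. A CCAAT box stood in 21 of the 26 windows (80.8%), against 35.7% of all windows, and both elements stood in 16 (61.5%), against 6.58%. Both elements were found in 3 of 3 windows of genes that fell and in 2 of 4 windows of genes that rose, and the KIF2C window, a gene that rose, held neither. A match of letters is a description and does not show that a factor binds there. Only the first listed window of each gene was read, so elements outside it were not counted. The marked letters, those of CDK1 among them, need not be the elements that act on the gene.

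PSME4 mRNA stood at 75.3 and 85.1 CPM (counts scaled to library size and by TMM) in PSME4 KD 1 and 2, against 158 and 180 CPM in control KD 1 and 2. This is a log2 fold change of −1.08 (SE 0.20). Library totals ran from 11766371 to 15208588 counts. Of the epithelial markers fixed for this check, 6 of 6 were in the table, with a summed level of 5160 and 4006 CPM in PSME4 KD 1 and 2, against 4582 and 3702 CPM in control KD 1 and 2, nearly all of it from keratins. Most of the sum came from KRT18, at 2820 to 4119 CPM over the libraries, while KRT19 was low, at 1.71 to 3.78 CPM. EPCAM was also low, at 5.42 to 7.88 CPM over the libraries, and CDH1 stood at 201 to 273 CPM. Of the markers of fibroblasts, leukocytes and endothelium, 3 of 5, 3 of 5 and 1 of 4 were in the table. The leukocyte genes PTPRC and CD3E and the endothelial genes PECAM1, VWF and CDH5 were not listed. The summed marker levels per library were 17.2 to 28.6 CPM for fibroblasts, 29.1 to 39.4 CPM for leukocytes and 9.06 to 13.2 CPM for endothelium. Most of the leukocyte sum came from CD68, at 23.7 to 33.5 CPM, and CD14 stood at 4.73 to 7.16 CPM. Of the fibroblast genes COL1A1 was called higher (log2 fold change 0.73) and PDGFRA lower (−1.34) in PSME4 KD, and COL1A2 and DCN were not listed.

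The 32 genes did not move as a block. In PSME4 KD cells 5 rose, namely PLK1, FOXM1, MKI67, KIF2C and AURKB, and 3 fell, namely HMMR, CDK1 and NUSAP1, while 24 did not pass the test. A gene is called changed at a Benjamini-Hochberg adjusted p below 0.05 in edgeR's quasi-likelihood test over all 13497 genes, where 10.6% of genes were called, 4.56% higher and 6.00% lower. Among the members 25.0% were called, 15.6% higher and 9.38% lower. The median level in control KD was 123 CPM for the members, against 20.3 CPM over all genes tested. Whether level bears on the share called was not tested, and the next comparison sets only a lower limit on level. Of the 6640 genes whose mean level reached that of the lowest member (21.3 CPM), 12.8% were called, 4.91% higher and 7.88% lower.

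Log2 fold changes of the members ran from −0.99 to 0.77, with a median of −0.19, against −0.0021 over all genes tested. There were 10 members above 0 and 22 below (68.8%), where 50.2% of all genes tested were below 0. In 19 of the 32 genes (59.4%) both PSME4 KD libraries lay on the same side of both control KD libraries, above them in 9 genes and below in 10. This share is near the 55.0% of all genes tested (26.7% above and 28.4% below). The summed level of the 32 genes was 4869 and 4596 CPM in PSME4 KD 1 and 2, against 4723 and 5710 CPM in control KD 1 and 2. The groups overlapped in this sum, and control KD 2 stood above the other libraries. PSME4 KD 2 was higher than PSME4 KD 1 in 14 of the 32 genes, with a median log2 difference of −0.065 (−0.0015 over all genes tested). By contrast, control KD 2 was higher than control KD 1 in 26 of 32, with a median of 0.24. Over all genes tested this held for 6462 of 13497, with a median of −0.012. The plot of the 32 genes by library shows this spread of the control libraries gene by gene.

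**Figure D1:**
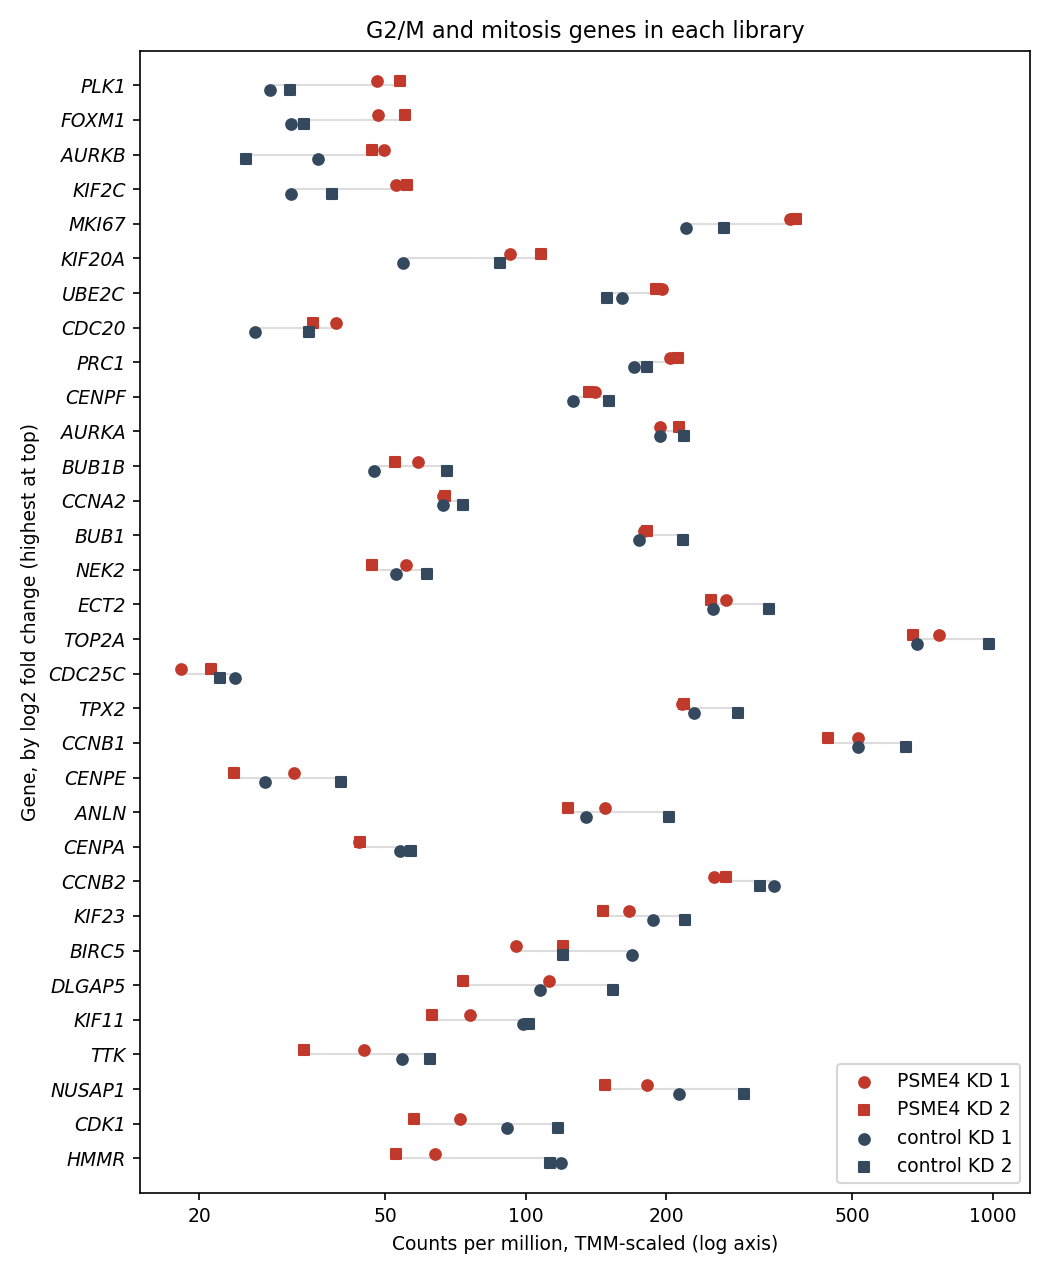
Level of each of the 32 genes in CPM (TMM-scaled, log axis) in the 2 PSME4 KD libraries (red) and the 2 control KD libraries (dark), 1 symbol per library, with genes ordered by log2 fold change. PLK1, FOXM1, AURKB, KIF2C and MKI67 have both PSME4 KD libraries above both control KD libraries, and HMMR, CDK1 and NUSAP1 have both below.

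Levels of different genes were set on a scale of CPM per kilobase of the longest GENCODE transcript. That transcript may not be the one expressed in these cells, so the scale compares genes only roughly. On it CCNB1 was the most abundant of the 32 in both groups, at 221 in PSME4 KD and 269 in control KD. UBE2C followed with 211 in PSME4 KD and 170 in control KD, then TOP2A with 125 in PSME4 KD and 145 in control KD, and CCNB2 with 104 in PSME4 KD and 131 in control KD. The same 4 genes held the first 4 places in both groups. CENPE was the lowest, at 3.23 in PSME4 KD and 3.94 in control KD. Among the genes that changed, HMMR stood in place 23 of 32 in PSME4 KD and 16 in control KD, and AURKB in place 13 in PSME4 KD and 20 in control KD. These places carry no test.

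Of 8 mitotic kinases, 2 rose and 1 fell, where 4.56% of all genes tested rose and 6.00% fell. The median log2 fold change of the 8 was −0.08. PLK1, the polo-like kinase that matures centrosomes and activates the anaphase machinery, stood at 48.1 and 53.9 CPM in PSME4 KD 1 and 2, against 28.4 and 31.2 CPM in control KD 1 and 2. Both PSME4 KD libraries lay well above both control libraries, and the log2 fold change was 0.77 (SE 0.21, adjusted p = 0.0170 by edgeR). AURKB, the catalytic kinase of the chromosomal passenger complex, stood at 49.7 and 46.8 CPM in PSME4 KD, against 36.0 and 25.2 CPM in control KD. The control libraries differed more from each other than the PSME4 KD libraries did, and the log2 fold change was 0.66 (SE 0.22, adjusted p = 0.0485 by edgeR), just inside the threshold. CDK1, the kinase that starts mitosis, stood at 72.4 and 57.5 CPM in PSME4 KD, against 91.3 and 117 CPM in control KD. The groups did not overlap, and the log2 fold change was −0.68 (SE 0.20, adjusted p = 0.0315 by edgeR).

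The checkpoint kinase TTK, which recruits the other checkpoint proteins to unattached kinetochores, stood at 45.0 and 33.5 CPM in PSME4 KD, against 54.2 and 62.3 CPM in control KD. The groups did not overlap, but its log2 fold change of −0.57 (SE 0.21) did not pass (adjusted p = 0.0761 by edgeR). AURKA, the Aurora kinase of spindle poles, stood at 194 and 213 CPM in PSME4 KD, against 194 and 218 CPM in control KD, a log2 fold change of −0.02 (SE 0.19). The groups overlapped almost fully, so AURKA and AURKB had different values, although the difference between them was not tested. The checkpoint kinases BUB1 and BUB1B (BUBR1) were at −0.12 (SE 0.19) and −0.05 (SE 0.21) on the log2 scale, and the centrosome kinase NEK2 at −0.16 (SE 0.20). None of these 3 passed, and in all of them the groups overlapped.

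The cyclins and the phosphatase CDC25C did not pass the test. CCNB1, the main mitotic cyclin of CDK1, stood at 515 and 445 CPM in PSME4 KD, against 514 and 651 CPM in control KD. PSME4 KD 1 and control KD 1 were at the same level, and CCNB1 had a log2 fold change of −0.28 (SE 0.20, adjusted p = 0.386 by edgeR). CCNB2, the other B-type cyclin, was at −0.33 (SE 0.19) with groups that did not overlap, at 253 and 269 CPM in PSME4 KD, against 340 and 318 CPM in control KD. CCNA2, the cyclin of S phase and G2, was at −0.06 (SE 0.20), and CDC25C, a phosphatase that activates CDK1, at −0.22 (SE 0.22).

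FOXM1, a transcription factor that activates many genes of this set, rose. It stood at 48.3 and 55.2 CPM in PSME4 KD 1 and 2, against 31.4 and 33.4 CPM in control KD 1 and 2, with no overlap between the groups. Its log2 fold change was 0.67 (SE 0.21, adjusted p = 0.0340 by edgeR). FOXM1 overlaps RHNO1 and ITFG2 on the genome, and no source used here says whether reads were counted by strand, so its count may include reads of these neighbours. MYBL2, which encodes B-MYB, was at −0.23 (SE 0.26), and LIN54, the MuvB subunit that reads the CHR, at 0.30 (SE 0.24), neither past the threshold. BORA, the cofactor through which Aurora A activates PLK1, was at −0.27 (SE 0.24) and did not pass either.

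None of CENPA, CENPE, CENPF and BIRC5, which act at centromeres and kinetochores, passed. CENPA, the histone H3 variant that marks centromeres, stood at 43.9 and 44.2 CPM in PSME4 KD, against 53.9 and 56.8 CPM in control KD. These groups did not overlap, with a log2 fold change of −0.33 (SE 0.20, adjusted p = 0.299 by edgeR). The kinetochore motor CENPE was at −0.29 (SE 0.23) and the kinetochore protein CENPF at 0.0036 (SE 0.19). BIRC5 (survivin), the passenger subunit that binds the centromere, stood at 95.2 and 120 CPM in PSME4 KD, against 169 and 120 CPM in control KD. PSME4 KD 2 and control KD 2 were at the same level, and the log2 fold change was −0.42 (SE 0.21, adjusted p = 0.191 by edgeR).

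The cofactors of the anaphase-promoting complex were both above 0 without passing. CDC20, its activator in mitosis, stood at 39.2 and 35.1 CPM in PSME4 KD, against 26.3 and 34.3 CPM in control KD, and UBE2C, its ubiquitin-conjugating enzyme, stood at 196 and 190 CPM in PSME4 KD, against 161 and 150 CPM in control KD. Neither pair of groups overlapped. The log2 fold changes were 0.29 (SE 0.22) for CDC20 and 0.31 (SE 0.19) for UBE2C.

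Spindle proteins held the largest decrease. HMMR, a microtubule-binding protein of spindle poles that is also a hyaluronan receptor, fell 1.99-fold. It stood at 63.9 and 52.7 CPM in PSME4 KD 1 and 2, against 119 and 113 CPM in control KD 1 and 2, and no other member had a fold change this large. Its log2 fold change was −0.99 (SE 0.20, adjusted p = 0.0021 by edgeR). NUSAP1, which bundles microtubules near chromosomes, stood at 182 and 148 CPM in PSME4 KD, against 213 and 294 CPM in control KD. The groups did not overlap, PSME4 KD 1 lay closer to control KD 1 than the libraries of control KD lay to each other, and the log2 fold change was −0.62 (SE 0.20, adjusted p = 0.0483 by edgeR). DLGAP5 (HURP), a stabiliser of kinetochore fibres, was at −0.49 (SE 0.22) and TPX2, the activator of Aurora A on spindles, at −0.25 (SE 0.19), while PRC1, which bundles the midzone of the anaphase spindle, was at 0.24 (SE 0.19). These 3 did not pass.

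The 4 kinesins were split. KIF2C (MCAK), which depolymerises microtubules at centromeres and corrects wrong attachments, rose to 52.7 and 55.8 CPM in PSME4 KD, against 31.4 and 38.4 CPM in control KD. The groups did not overlap, with a log2 fold change of 0.63 (SE 0.21, adjusted p = 0.0451 by edgeR). KIF20A, a kinesin of the spindle midzone, stood at 92.4 and 108 CPM in PSME4 KD, against 54.5 and 88.0 CPM in control KD, where control KD 2 lay close to PSME4 KD 1. Its log2 fold change of 0.49 (SE 0.22) did not pass. KIF11 (Eg5), which pushes spindle poles apart, stood at 75.8 and 63.1 CPM in PSME4 KD, against 98.7 and 102 CPM in control KD, and KIF23, a centralspindlin subunit, at 167 and 146 CPM in PSME4 KD, against 187 and 220 CPM in control KD. Both had groups that did not overlap, but their log2 fold changes of −0.53 (SE 0.20) and −0.38 (SE 0.19) did not pass.

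Of the genes that act on chromosomes, MKI67 rose and TOP2A did not pass. MKI67, which encodes the Ki-67 antigen, a proliferation marker that coats mitotic chromosomes, stood at 368 and 378 CPM in PSME4 KD 1 and 2, against 220 and 266 CPM in control KD 1 and 2. The groups did not overlap, and the log2 fold change was 0.62 (SE 0.19, adjusted p = 0.0393 by edgeR). TOP2A, the topoisomerase that untangles sister chromatids, stood at 767 and 677 CPM in PSME4 KD, against 688 and 984 CPM in control KD. The PSME4 KD values lay around that of control KD 1 and below that of control KD 2, with a log2 fold change of −0.21 (SE 0.21). The cytokinesis genes ANLN (anillin) and ECT2, the RhoA exchange factor, were at −0.32 (SE 0.21) and −0.17 (SE 0.20), with overlapping groups.

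On GRCh38 (the build hg38 of the submitters' notes) the genes that rose lie at positions 23678889 to 23690367 of chromosome 16 (PLK1), 2857680 to 2877174 of chromosome 12 (FOXM1), 128096659 to 128126423 of chromosome 10 (MKI67), 44739837 to 44767767 of chromosome 1 (KIF2C) and 8204731 to 8210575 of chromosome 17 (AURKB). Those that fell lie at 163460632 to 163491941 of chromosome 5 (HMMR), 60778331 to 60794852 of chromosome 10 (CDK1) and 41332881 to 41381046 of chromosome 15 (NUSAP1). In RefSeq 17 of the 32 genes overlap another gene, among them PLK1 with ERN2 and HMMR with its antisense transcript HMMR-AS1, so reads of these pairs cannot be told apart where strand was not used.

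In the authors' deposited table, 3 of the 32 genes were higher and 2 lower in PSME4 KD at an adjusted p below 0.05, where 6.46% of the 15037 rows passed, 2.78% higher and 3.68% lower. These were PLK1, MKI67 and FOXM1 (higher) and HMMR and CDK1 (lower). In the authors' deposited table KIF2C, AURKB and NUSAP1 had adjusted p-values of 0.0529, 0.0715 and 0.0725. All 8 had the direction given above. The authors' deposited table gives its fold changes as control KD over PSME4 KD, so that HMMR is listed there at 0.98 and PLK1 at −0.78 on the log2 scale.

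The calls depended on having 4 libraries. With any 1 library left out, 0 of the 8 genes passed in edgeR, where 0.312%, 2.05%, 0.378% and 0.669% of all genes were called without PSME4 KD 1, PSME4 KD 2, control KD 1 and control KD 2. Each of the 8 kept its direction in these fits. HMMR came nearest, with a smallest adjusted p of 0.0626 by edgeR without control KD 2, and ranged from −1.13 to −0.83 in log2 fold change. PLK1 ranged from 0.71 to 0.86 and FOXM1 from 0.60 to 0.77. AURKB had 0.43 without control KD 2 and 0.93 without control KD 1, NUSAP1 had −0.44 without PSME4 KD 2 and −0.36 without control KD 2, and CDK1 had −0.48 without control KD 2.

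**Figure D2:**
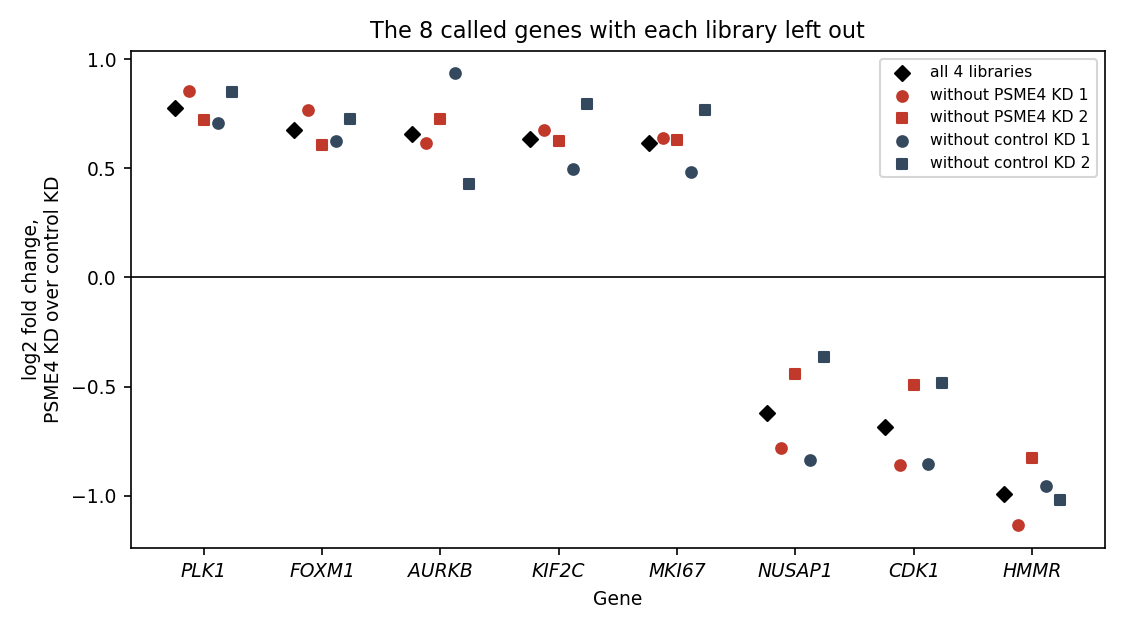
Log2 fold change (PSME4 KD over control KD) of the 8 called genes in the edgeR fit with 4 libraries (black) and in fits with 1 library left out (red: a PSME4 KD library, dark: a control KD library). No point crosses 0, and AURKB and NUSAP1 move most, from 0.43 to 0.93 and from −0.83 to −0.36.

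The members that rose had transcripts richer in GC than those that fell. The 5 genes that rose had 48.3% to 57.1% GC in their longest transcript (median 55.6%), the 3 that fell had 36.7% to 42.6% (median 37.0%), and the 24 others had 35.3% to 57.9% (median 42.8%). Across the 32 genes Spearman's rho between GC content and log2 fold change was 0.68, and across 13150 tested genes with a GC value it was 0.40. These genes come from the same 4 libraries and are not independent replicates, so rho is a description. CDC20, with the highest GC content of the set, did not pass, and BIRC5, at 52.2% GC, had a negative fold change. Over all genes, rho between GC content and the log2 difference within a group was −0.098 for PSME4 KD 1 minus PSME4 KD 2 and 0.49 for control KD 1 minus control KD 2.

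**Figure D3:**
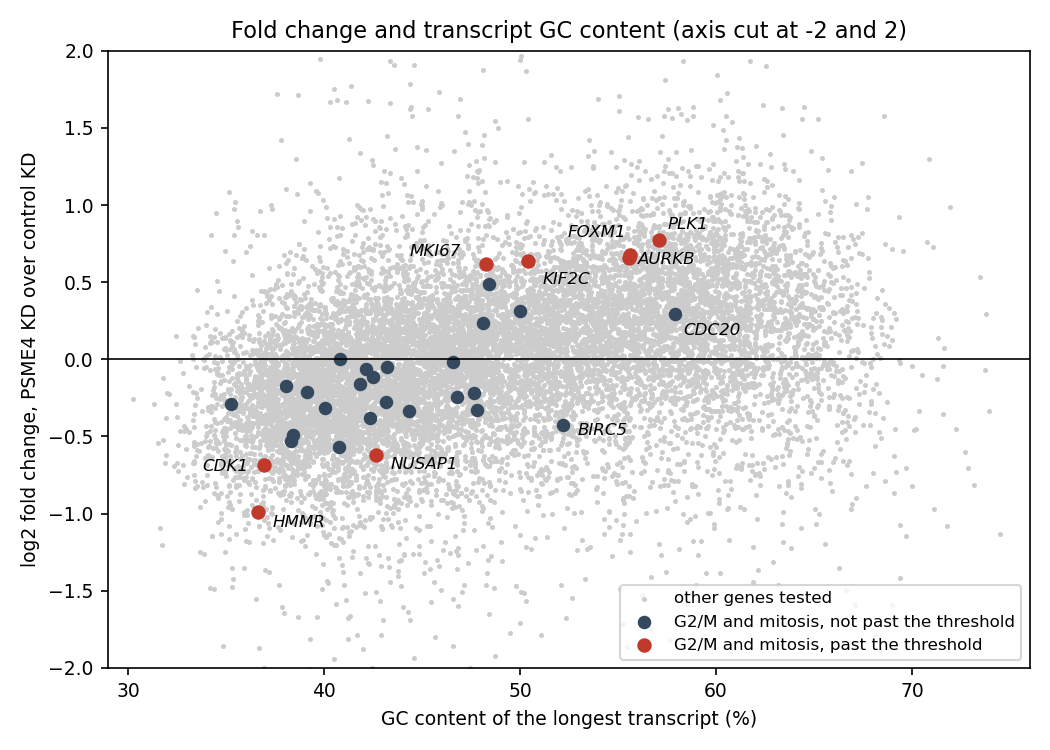
GC content of the longest transcript (x axis, percent) and log2 fold change (y axis, PSME4 KD over control KD) of the 32 genes (red: past the threshold, dark: not) over all other tested genes (grey). The y axis ends at −2 and 2 and leaves out 96 genes. The genes that rose lie to the right of 48.3% GC and those that fell to the left of 42.6%.

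With each library corrected for its trend on GC content, 1 member rose and 1 fell, where 4.16% of all genes were called higher and 5.19% lower. MKI67 (0.59, adjusted p = 0.0371 by edgeR) and HMMR (−0.70, adjusted p = 0.0148 by edgeR) were still called. KIF2C was at 0.55 (adjusted p = 0.0530), PLK1 at 0.53 (0.0670), NUSAP1 at −0.47 (0.0998), AURKB at 0.46 (0.104), FOXM1 at 0.46 (0.105) and CDK1 at −0.38 (0.148), all by edgeR and no longer past the threshold. With the replicate number as a block beside the correction, 4 members were called higher and 2 lower. This fit called more genes in general, with 830 of all 13497 genes higher and 960 lower, against 561 and 700 with the correction alone. Of the 8 calls without either term, those of PLK1 (0.54, adjusted p = 0.0335 by edgeR), KIF2C (0.56, adjusted p = 0.0250 by edgeR), MKI67 and HMMR were kept and 4 were not. KIF20A was then called higher (0.49, adjusted p = 0.0429 by edgeR) and BIRC5 lower (−0.54, adjusted p = 0.0256 by edgeR). The median log2 fold change of the members was 0.016 after the correction, and rho with GC content across them was 0.45. BIRC5 moved further down, to −0.55 (adjusted p = 0.0578 by edgeR), and CDC20 moved to 0.03.

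**Figure D4:**
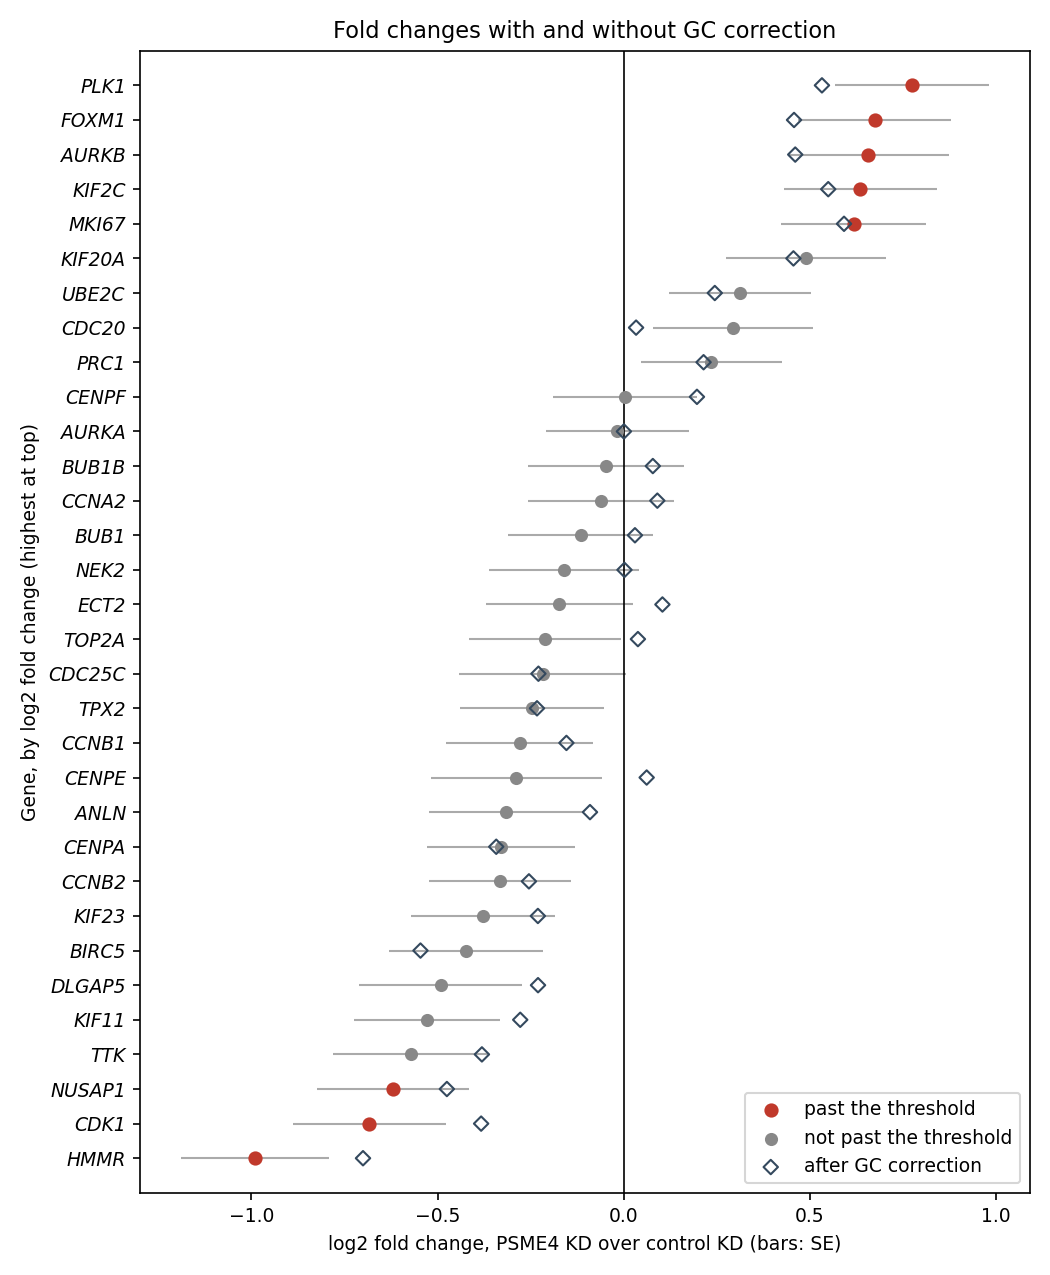
Log2 fold change of each of the 32 genes (PSME4 KD over control KD) with its SE, in red where the gene passed the threshold and in grey where it did not. Open diamonds give the value after correction of each library for GC content, which leaves MKI67 at 0.59 and HMMR at −0.70 and brings CDK1 to −0.38.

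Other genes of the mitotic machinery were read from 8 lists by role with 177 genes, all of them in the table and tested. Of these 5 rose (2.82%), 20 fell (11.3%) and 152 did not pass, against 4.56% and 6.00% of all genes. The median log2 fold change was −0.14. After the GC correction 3 of the 177 were called higher and 12 lower, where 4.16% of all genes were called higher and 5.19% lower. The median was then −0.087. With 1 library left out, at most 2 of the 25 calls were kept.

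Kinetochore and checkpoint genes were the most one-sided of these lists. Of 36, 6 fell (16.7%, against 6.00% of all genes) and none rose. A negative log2 fold change was seen in 31 (86.1%, against 50.2% of all genes), with a median of −0.40. After the GC correction the median was −0.21. Of the 36, 4 were then called lower and 1 higher, where 5.19% and 4.16% of all genes were. PSME4 KD lay below control KD without overlap in 24 of the 36 (66.7%), where 28.4% of all genes did. CENPQ (−1.26, SE 0.27) and CENPU (−0.87, SE 0.22), subunits of the constitutive centromere network, fell, as did MIS18A (−1.04, SE 0.27), which helps load CENPA, and SKA2 (−0.73, SE 0.20), which couples kinetochores to microtubules. After the GC correction SKA2 was at −0.46 and no longer called.

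Among 21 genes that control mitotic entry 3 fell (14.3%, against 6.00% of all genes) and 1 rose (4.76%, against 4.56%). MNAT1 (−1.08, SE 0.22) belongs to the kinase that activates CDK1, CKS1B (−0.93, SE 0.21) binds cyclin-dependent kinases, and CDKN3 (−0.68, SE 0.20) is a phosphatase that acts on them. PPP2R1A, the scaffold of the phosphatase PP2A that opposes CDK1, rose (0.74, SE 0.19). All 4 were still called after the GC correction. Of 17 genes of the anaphase-promoting complex and its regulators 2 fell (11.8%) and none rose. The subunits ANAPC13 (−0.79, SE 0.20) and CDC16 (−0.67, SE 0.20) fell, and both were also called after the correction.

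Among 22 genes of the MuvB, DREAM, E2F and NF-Y regulators, 3 fell (13.6%, against 6.00% of all genes) and 1 rose (4.55%, against 4.56%). E2F5 (−0.88, SE 0.20), MYBL1 (−0.78, SE 0.23) and NFYB (−0.67, SE 0.21), an NF-Y subunit, fell, and the MuvB subunit LIN37 rose (1.08, SE 0.28), at 14.1 and 10.6 CPM in PSME4 KD, against 6.66 and 4.99 CPM in control KD. E2F5 and LIN37 were also called after the GC correction. Of 30 further kinesin, spindle and cytokinesis genes 3 fell (10%) and 1 rose (3.33%). These were CEP55 (−0.80, SE 0.19), which acts at abscission, ARHGAP11A (−0.80, SE 0.20), DEPDC1 (−0.69, SE 0.20) and, upwards, TROAP (0.85, SE 0.23). CEP55 and ARHGAP11A were also called after the correction.

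Of 21 condensin, cohesin and separase genes 2 fell (9.52%), 1 rose (4.76%) and 18 did not pass. Those past the threshold were the condensin subunits SMC4 (−0.64, SE 0.20) and NCAPG (−0.69, SE 0.21), which fell, and NCAPD2 (0.63, SE 0.20), which rose, and none of the 3 was called after the GC correction. Of 25 centriole and centrosome genes 1 fell and 1 rose (4% each), shares no higher than the 6.00% and 4.56% of all genes. HAUS3 had a log2 fold change of −0.97 (SE 0.28) and TUBGCP6 of 1.07 (SE 0.33), neither called after the correction. None of 5 genes of the passenger complex and shugoshin list passed, nor had any an unadjusted p below 0.05 by edgeR.

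**Figure D5:**
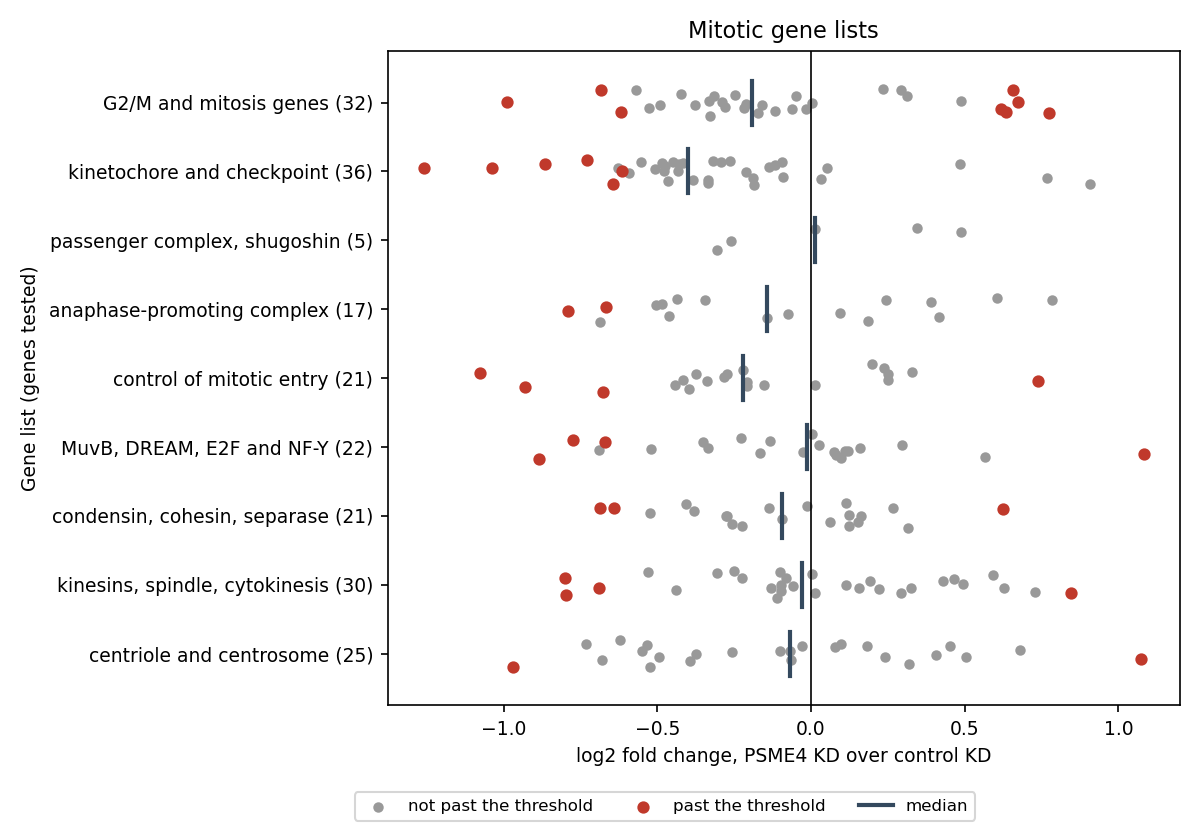
Log2 fold change (PSME4 KD over control KD) of the 32 genes and of 177 further mitotic genes in 8 lists, 1 point per gene, in red where the gene passed the threshold, with the median of each list as a bar and the number of genes tested in brackets. The kinetochore and checkpoint list has the lowest median, −0.40, and the G2/M and mitosis genes have called genes on both sides of 0.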

How the data were processed

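Counts per gene were taken as the authors deposited them, as raw whole numbers for 4 libraries made with the Lexogen SENSE kit, per the labels' protocols. The submitters' processing notes name cutadapt, STAR, DESeq2 and the build hg38. No source used here gives versions, the read counter or its strand setting. The log2 fold change and adjusted p-value of the authors' own comparison were also deposited. A further 8 columns of normalised or transformed values were not used.

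The tests were run with edgeR 4.0.16 in R 4.3.3 (filterByExpr, TMM, glmQLFit and glmQLFTest, 2 residual degrees of freedom, Benjamini-Hochberg over 13497 genes, threshold 0.05). SE is the log2 fold change over the root of F, in which the spread of each gene is moderated across genes. Within groups the libraries varied beyond sampling noise (chi-square over its degrees of freedom 17.4 in PSME4 KD and 21.2 in control KD). GC content, from the longest GENCODE 29 transcript, was available for 97.4% of genes; the correction is a lowess trend (span 0.4) of each library's log2 CPM (prior count 2), entered as an offset. Alternatives were DESeq2 1.42.0, limma 3.58.1 voom, other scalings and filters, a block, each library left out, a threshold of 0.10 and a test against 0.58. Steps were tested on simulated data.

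The members and the lists were chosen with earlier results of these data known. Named are PSME4, all 32 members, MYBL2, LIN54, BORA and, of each further list, called genes, at most 4 in each direction by p.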

Additional observations from a re-analysis of the deposited data

How the results depend on the processing

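The 8 calls among the G2/M and mitosis genes were all kept under DESeq2's size factors, library size alone, limma voom, no filter, a filter of 50 counts in 2 libraries and the replicate block, and DESeq2 kept 6 (without AURKB and NUSAP1). The GC correction gave 1 higher and 1 lower, and for the further mitotic genes 3 higher and 12 lower. Together with the replicate block it gave 4 members higher and 2 lower, and 7 further mitotic genes higher and 13 lower. Over all genes the GC correction gave 561 higher and 700 lower, and together with the block 830 higher and 960 lower. A threshold of 0.10 gave 5 members lower, and over all genes 1006 higher and 1234 lower. Tested against a log2 change of 0.58, 43 genes were higher and 72 lower, 0 of them members and 0 further mitotic genes, and PSME4 did not pass (−1.08, adjusted p = 0.118 by edgeR). With 1 library left out, 15 to 192 genes were higher and 26 to 89 lower, with 0 members in either direction and 0 to 1 further mitotic genes in each. PSME4 was then at −1.17 to −0.97, past the threshold in the fit without PSME4 KD 2 and in none of the 3 others. The cause of these changes was not tested, but a fit with 1 library in a group has fewer samples. Over 13 alternatives for each member, 370 values stayed on their side of the threshold, 44 called values lost it and 2 passed it (KIF20A, 0.49, and BIRC5, −0.54, under the replicate block with the GC correction).

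The labels give libraries with the same replicate number only that number in common. Without the GC correction their deviations correlated at −0.02, which does not settle whether they form pairs. The replicate block gave 5 members higher and 3 lower, 5 of 5 and 3 of 3 of them as without it. Over all genes the block gave 700 higher and 854 lower, against 616 and 810 without it. The lowest member averaged 21.3 CPM. The fit without a block leaves 2 residual degrees of freedom per gene, and fits with a block leave fewer. The quasi-likelihood test also moderates the spread of each gene across all genes tested, so its p-values do not rest on the libraries of that gene alone.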
